A study of Mus musculus with 4 samples.

Results

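The nuclear genes of the respiratory chain were followed in 4 RNA-seq libraries of C3H10T1/2 cells, an established line of mouse mesenchymal stem cells (MSCs) from C3H embryos. Members were chosen by name from the deposited gene count table. A row was taken when its annotated transcript was protein coding and its symbol was Nduf with a letter a, b, c, s or v and a number, one of Sdha to Sdhd, or began with Uqcr, Cox4, Cox5, Cox6, Cox7, Cox8 or Atp5. This gave 72 of the 54532 gene rows, under 71 symbols, since Atp5o stood on 2 rows. They were 30 genes of complex I, 4 of complex II, 8 of complex III, 16 of complex IV and 14 of complex V. A mean level of at least 1 CPM (counts scaled to library size) over the 4 libraries was reached by 64 members: 30, 4, 8, 9 and 13 in the order of the complexes. The rule uses names and transcript labels alone.

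The cells had received a control siRNA or an siRNA against DNMT1, the enzyme that copies DNA methylation to the new strand, for 48 h. They were then left untreated (groups control and siDNMT1) or kept for 3 days in osteoblast (OB) induction medium with 50 µM ascorbic acid, 10 mM glycerophosphate and dexamethasone (groups OB and siDNMT1_OB). Beyond the 48 h of transfection no time in culture is given for the untreated groups. Medium and time in culture therefore cannot be told apart between untreated and induced groups. Every group was a single library of the same line, so the comparisons have no replicate check and no p-value is given. Counts are given raw, CPM and log2 fold changes after scaling for depth. Intervals are exact 95% counting intervals, which leave out the variation between dishes. In bulk RNA, fewer cells of a type and less RNA per cell cannot be told apart.

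The respiratory chain sits in the inner mitochondrial membrane. Complexes I and II take electrons from NADH and succinate, complex III passes them through cytochrome c to complex IV, which reduces oxygen, and the proton gradient built on the way drives ATP synthesis at complex V. Its subunits come from both genomes: a few core subunits are encoded in mitochondrial DNA, and all others, complex II included, are nuclear. In cells on the way to the osteoblast fate, the chain is one of the sources of ATP beside glycolysis.

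Since the study addressed DNA methylation, which sits mostly on CpG dinucleotides, the promoters of 4 members are shown for reference: the pair with the lowest ratios of siDNMT1 to control (Cox7a2 and Atp5e), the paralogue of Cox7a2, and, of the members that passed the filter, that with the highest ratio of OB to control (Ndufv3). These are the 250 bases before the RefSeq start on GRCm38.p6, 5′ to 3′ on the strand of the gene, with each CpG in capitals. Cox7a2 lies at chr9:79759854-79760103 (minus strand), Atp5e at chr2:174464102-174464351 (minus), Cox7a2l at chr17:83514334-83514583 (minus) and Ndufv3 at chr17:31519865-31520114 (plus).
Cox7a2: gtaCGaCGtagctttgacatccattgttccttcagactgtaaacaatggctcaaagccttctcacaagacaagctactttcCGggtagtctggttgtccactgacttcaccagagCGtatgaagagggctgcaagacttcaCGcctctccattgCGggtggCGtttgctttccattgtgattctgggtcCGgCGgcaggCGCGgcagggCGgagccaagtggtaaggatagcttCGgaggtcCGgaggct
Atp5e: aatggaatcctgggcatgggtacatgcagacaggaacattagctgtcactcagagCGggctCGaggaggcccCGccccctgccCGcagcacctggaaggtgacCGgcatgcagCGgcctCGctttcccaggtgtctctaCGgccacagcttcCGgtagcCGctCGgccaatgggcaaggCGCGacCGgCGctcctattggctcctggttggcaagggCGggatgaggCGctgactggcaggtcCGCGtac
Cox7a2l: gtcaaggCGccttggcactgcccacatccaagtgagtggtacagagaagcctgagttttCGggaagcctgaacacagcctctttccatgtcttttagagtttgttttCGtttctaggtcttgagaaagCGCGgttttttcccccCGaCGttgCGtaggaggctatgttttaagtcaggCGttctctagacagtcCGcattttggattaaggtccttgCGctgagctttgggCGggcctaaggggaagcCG
Ndufv3: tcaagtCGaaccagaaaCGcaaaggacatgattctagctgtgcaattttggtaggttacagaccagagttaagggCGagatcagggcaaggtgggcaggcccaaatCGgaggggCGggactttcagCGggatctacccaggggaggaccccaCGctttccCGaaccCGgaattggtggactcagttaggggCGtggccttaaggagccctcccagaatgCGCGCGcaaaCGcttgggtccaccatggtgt
The windows held 14, 19, 13 and 14 CpGs in this order, all within the range of the members (1 to 35). The last 25 bases of the Cox7a2 window and the last 4 of the Atp5e window lie inside the gene as the count table draws it. The methylation of these bases was not analysed here.

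Total counts were between 22296046 (OB) and 27367792 (control), and the floor of 3 counts was 0.111 to 0.133 CPM. Dnmt1, the targeted gene, counted 7195 reads with control siRNA and 3375 with DNMT1 siRNA in untreated cells, and 1931 and 2492 after induction. It was thus lower in the untreated pair (log2 fold change -1.01) but not in the induced pair (0.13), so the siDNMT1_OB sample is called the library labelled siDNMT1_OB, and no direction drawn from it rests on a lower Dnmt1 count. Dnmt1 was also lower for OB against control (-1.63) and for the library labelled siDNMT1_OB against siDNMT1 (-0.50). Of the 6 mesenchymal markers, Col1a1, Col1a2, Vim and Fn1 were abundant in all 4 libraries. In the untreated and induced siRNA pairs Fn1 was at 0.69 and 0.68, Vim at 0.26 and 0.46 and Col1a1 at 0.19 and 0.24. Col1a2 was at 0.11 and 0.00, Thy1 at -0.24 and 0.31 and Pdgfrb at 0.21 and -0.18. For OB against control Fn1 was at -0.65 and Thy1 at 0.67. For the library labelled siDNMT1_OB against siDNMT1 they were at -0.66 and 1.22. In each of these comparisons 4 of the 6 were above 0. Of the osteoblast markers, Runx2 had 2049, 2459, 1644 and 2327 counts in control, siDNMT1, OB and the library labelled siDNMT1_OB. It was at 0.35 for siDNMT1 and -0.06 for OB, each against control, and at 0.26 in the induced siRNA pair. Spp1 had 14862, 5270, 4226 and 7261 counts, at -1.41, -1.55 and 0.54 for the same comparisons. Alpl (0 to 2), Bglap (1 to 3), Sp7 (1 to 8) and Ibsp (1 to 17) were near the floor, also in both induced libraries. The fat cell gene Fabp4 had 111, 72, 963 and 1305 counts in control, siDNMT1, OB and the library labelled siDNMT1_OB, while Pparg had 918, 868, 1029 and 860, and Adipoq, Plin1 and the brown fat genes Ucp1 and Cidea had 0 to 2. The chondrocyte gene Sox9 had 2549, 4038, 4429 and 6215 counts, Col2a1 10580, 13440, 4675 and 13813 (1.32 in the induced pair) and Acan 0, and marker lists of skeletal muscle, heart muscle, endothelium, blood and epithelium summed to at most 31, 89, 9, 64 and 25 counts. Their part in the results on the chain was not tested.

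Members ranged widely in level. In control the 72 members together had 7863 CPM, 0.779% of all counts (interval 0.776 to 0.783). Atp5b, the catalytic beta subunit of ATP synthase, alone gave 22.5% of this sum, and Atp5a1, the alpha subunit beside it, 8.50%. Per kilobase of exon the control level had its median at 36.5 CPM per kb in complex I, 40.5 in complex II, 73.9 in complex III, 132 in complex IV and 45.1 in complex V. The highest members on this scale were Atp5b (418 CPM per kb), Cox8a (328) and Cox6a1 (255), the latter pair being small subunits of cytochrome c oxidase. The lowest that passed the filter was Ndufb2 at 1.30 CPM per kb, at an exon length of 5628 bases in the table, and its exons overlap those of Braf and other genes.

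**Figure D1:**
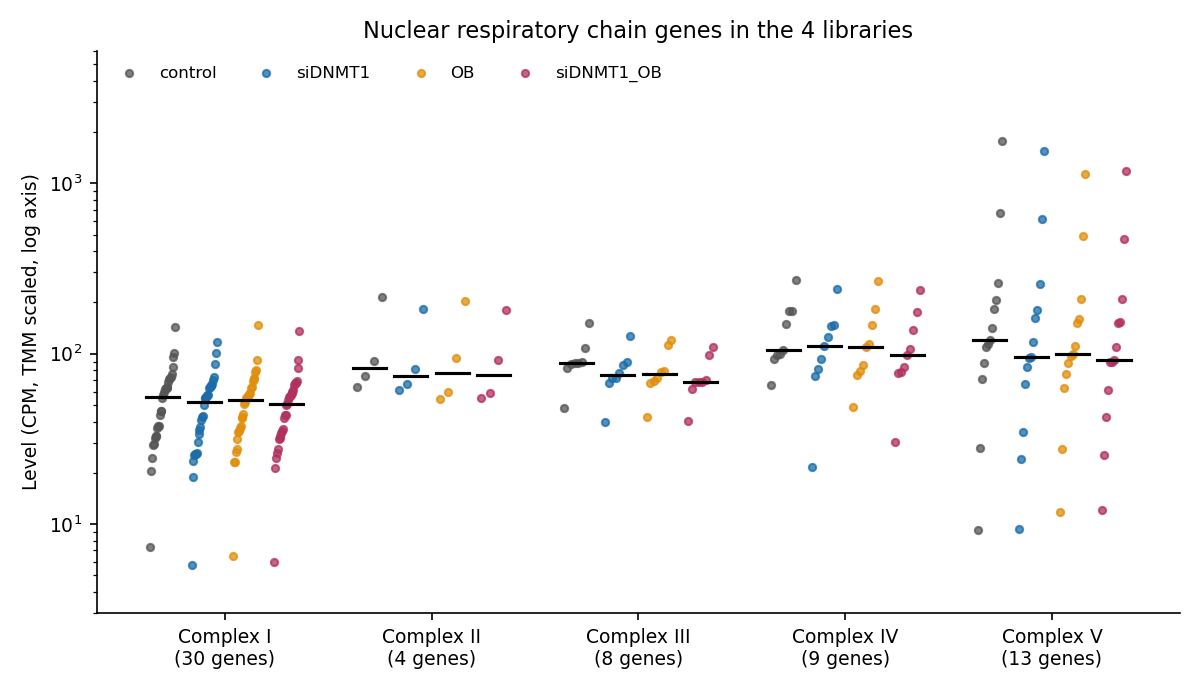
Level of each of the 64 members that passed the filter (CPM on a log axis, scaled with TMM factors) in each library, by complex; each point is a gene and the black bar is the median. Complex V spans the widest range, from Atp5s to Atp5b (1771 CPM in control), and the medians of the 4 libraries lie close together in every complex.

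The first question was what DNMT1 siRNA did to these genes in untreated cells. Cox7a2 and Atp5e were far lower in siDNMT1 than in control, and most other members were slightly lower. Of the 64 members, 59 had a log2 fold change below 0 and 5 above, with a median of -0.17 (interquartile range -0.27 to -0.11), whereas all 13233 tested genes had a median of -0.00, with 6650 below 0. Counting intervals, which narrow with the number of reads, lay below 0 for 46 members (26.8% of all tested genes), above 0 for 1 (26.0%) and across 0 for 17. A fold of at least 0.5 on the log2 scale was passed by 2 members downward, against 6.08% of all tested genes, and by 0 upward, against 8.46%. The same 2 passed a log2 fold of 1, against 3.34% of all tested genes either way. These 2 of 64 are close to the background share for calls of that size, so the calls as such do not set the members apart from other genes.

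Cox7a2 (ENSMUSG00000032330, chr9:79755361-79759878, minus strand) encodes the widely expressed form of subunit VIIa of cytochrome c oxidase. Control held 1783 counts (65.7 CPM), siDNMT1 555 (21.7), OB 1100 (48.6) and the library labelled siDNMT1_OB 813 (30.4). Control was the highest and siDNMT1 the lowest, and no counting interval of the 4 levels overlapped another. The ratio of siDNMT1 to control was 3.03-fold lower, a log2 fold change of -1.60 (interval -1.74 to -1.46), the 39th lowest of the 13233 tested genes.

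Its paralogue Cox7a2l, whose product joins complexes III and IV into supercomplexes, did not follow it. Cox7a2l had 2848, 2827, 2461 and 2620 counts in the same order, with log2 fold changes of 0.07 (interval -0.00 to 0.15) for siDNMT1 against control and -0.15 (-0.23 to -0.07) for the library labelled siDNMT1_OB against OB. The processed copy Gm6969 shares its sequence and held up to 1501 counts, so its split of reads is uncertain. With the copy added, both values moved by less than 0.05.

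Atp5e (ENSMUSG00000016252, chr2:174461072-174464105, minus strand) encodes the epsilon subunit in the central stalk of ATP synthase. Its counts were 2385 (87.9 CPM) and 895 (34.9) in the untreated pair, control first, and 1982 (87.6) and 1130 (42.2) in the induced pair. Control and OB were nearly equal and high, and siDNMT1 and the library labelled siDNMT1_OB were low. The ratio of siDNMT1 to control was 2.51-fold lower, a log2 fold change of -1.33 (interval -1.44 to -1.22). Neither Cox7a2 nor Atp5e overlapped the exons of another expressed gene, and neither matched another transcript over 100 bases at 95% identity or more.

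Below these came a gap. The third lowest member was Atp5j2, the f subunit in the membrane part of ATP synthase, at -0.44 (3101 against 2155 counts), followed by Cox6b1 at -0.42, which faces cytochrome c in complex IV, and Uqcr11, a small complex III subunit, at -0.39. The highest was Ndufa7, an accessory subunit of complex I, at 0.13 (interval 0.03 to 0.23), the only member whose interval lay above 0. Without Cox7a2 and Atp5e the median of the other 62 was still -0.17.

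**Figure D2:**
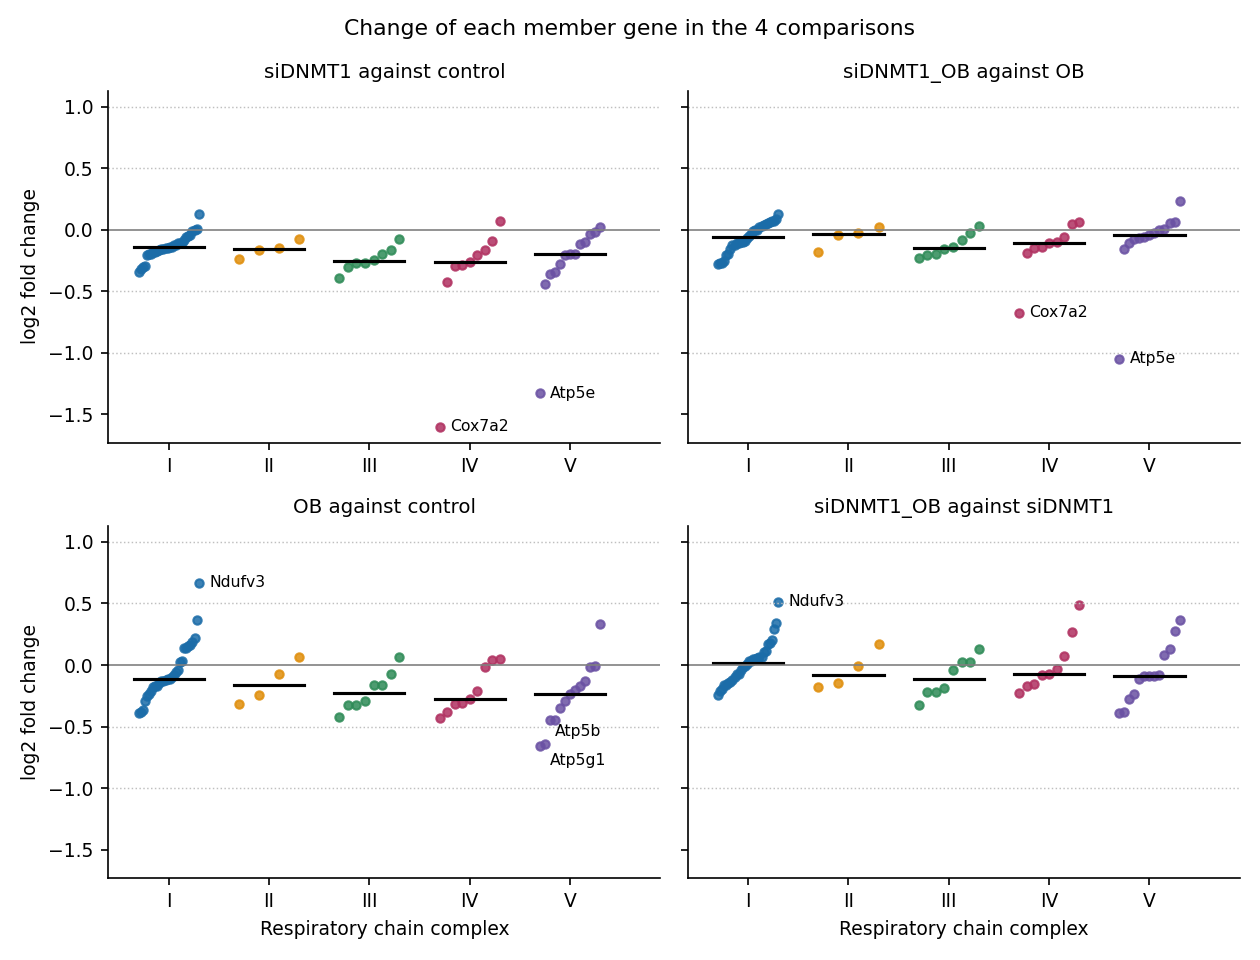
Log2 fold change of each member that passed the filter in the 4 comparisons, by complex; each point is a gene, black bars are medians, and dotted lines mark log2 folds of 0.5 and 1. Genes past 0.5 are named: Cox7a2 and Atp5e lie apart from all other members in the upper panels (the right one uses the library labelled siDNMT1_OB), and Ndufv3 is the member past 0.5 upward in the lower panels.

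The same siRNA contrast was then taken after OB induction, in the library labelled siDNMT1_OB against OB. Here too Atp5e and Cox7a2 were the lowest members, while the others lay nearer to 0. Atp5e was 2.07-fold lower, a log2 fold change of -1.05 (interval -1.16 to -0.95), and Cox7a2 was 1.60-fold lower, at -0.68 (-0.81 to -0.55). The third lowest, Ndufa6 of complex I, was at -0.28. The median of the 64 members was -0.07 (interquartile range -0.15 to 0.02), with 45 below 0 and 19 above, against a median of 0.01 for all tested genes. Counting intervals lay below 0 for 25 members (background 23.6%), above 0 for 3 (27.6%) and across 0 for 36. The log2 fold of 0.5 was passed by 2 members downward (background 6.28%) and by 0 upward (8.43%), and the log2 fold of 1 by Atp5e alone (3.73%).

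These pairs share no library. Both Cox7a2 and Atp5e were at least 0.5 lower in each, 2 of 64 members (3.13%), while 252 of the tested genes were (1.90%). A log2 fold change below 0 in both pairs was found for 42 of 64 members (65.6%) and for 3399 of all tested genes (25.7%). The difference between the log2 fold changes of the pairs, induced minus untreated, had a median of 0.11 over the members and was positive for 52 of them, against a median of 0.00 and 50.6% positive over all tested genes. Under total count scaling the median of the members was 0.07, as under upper quartile scaling. For Cox7a2 this difference was 0.92 and for Atp5e 0.28. With 1 library per group, none of these differences was tested.

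**Figure D3:**
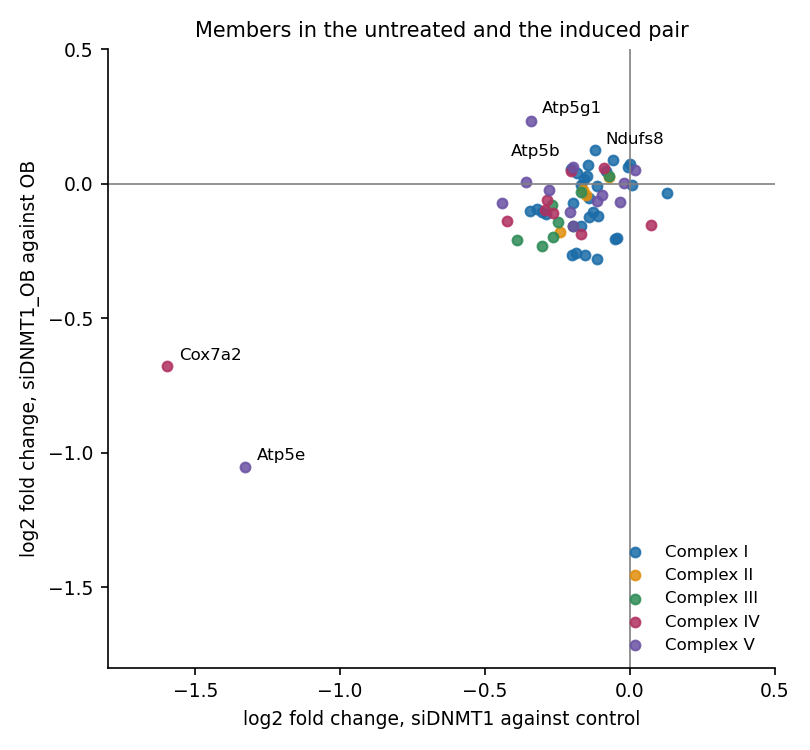
Log2 fold change of each of the 64 members for siDNMT1 against control (x axis) and for the library labelled siDNMT1_OB against OB (y axis), coloured by complex. Cox7a2 (-1.60 and -0.68) and Atp5e (-1.33 and -1.05) lie far from the remaining genes, and Atp5g1 (-0.34 and 0.23, or 0.09 in the induced pair with its pseudogene Gm10039 added) lies in the upper left with opposite signs.

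After control siRNA, most members were lower and a few higher in OB than in control. The median log2 fold change of OB against control was -0.16 (interquartile range -0.30 to -0.01), with 49 members below 0 and 15 above, against 0.01 for all tested genes. Counting intervals lay below 0 for 38 members (37.3% of all tested genes), above 0 for 9 (37.1%) and across 0 for 17. Only 1 member, Ndufv3, was at least 0.5 higher, where 22.1% of all tested genes were, and 2, Atp5b and Atp5g1, were at least 0.5 lower, where 18.3% were. No member reached a log2 fold of 1, against 17.7% of all tested genes. In this comparison calls were thus much rarer among the members than over all tested genes. The members that passed had at least 146 counts in every library, while tested genes reached down to a mean of 1 CPM. Counting intervals are wider at low counts, and the shares were not compared at like levels.

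The largest difference in level was that of Atp5b (chr10:128083273-128090391, plus strand). Counts were 48048 (1771 CPM) in control and 39605 (1546) in siDNMT1, against 25635 (1134) in OB and 31693 (1184) in the library labelled siDNMT1_OB. Both induced libraries were lower than both untreated ones. The log2 fold change was -0.64 (interval -0.67 to -0.62) for OB against control and -0.38 (-0.41 to -0.36) for the library labelled siDNMT1_OB against siDNMT1.

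Atp5a1 was lower in both induced libraries too, with 18132, 15832, 11115 and 12592 counts and log2 fold changes of -0.44 and -0.39 for these comparisons. The summed level of complex V went from 3772 CPM in control to 2722 in OB, a log2 ratio of -0.47, whereas complex I summed to 1663 and 1590 CPM (-0.06). Without Atp5b and Atp5a1, complex V summed to 1332 and 1097 CPM.

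Atp5g1 encodes one of the 3 precursors of the c subunit, the proton-carrying ring of ATP synthase, which are processed to the same mature protein. It had 3251, 2425, 1717 and 2387 counts in control, siDNMT1, OB and the library labelled siDNMT1_OB. OB was the lowest, at -0.66 against control (interval -0.74 to -0.57). Its pseudogene Gm10039 had 13, 10, 195 and 13 counts, so OB was also the library with the most reads on the copy. With the copy added to the gene, the value moved to -0.51. The other precursors were lower as well, Atp5g3 at -0.45 (5626 to 3439 counts) and Atp5g2 at -0.30 (7009 to 4759).

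Ndufv3 (chr17:31520115-31531326, plus strand), a small accessory subunit on the flavoprotein part of complex I, went the other way. It had 993, 909, 1315 and 1354 counts, or 36.6, 35.5, 58.1 and 50.6 CPM, and both induced libraries were higher than both untreated ones. The log2 fold change was 0.67 (interval 0.55 to 0.79) for OB against control. Its partners in the same part of the complex, Ndufv1 and Ndufv2, which hold the NADH site and an iron-sulfur cluster, were at -0.29 (2600 to 1773 counts) and -0.39 (2262 to 1440). The next highest members were Ndufa1, an accessory subunit of the membrane arm, at 0.37 (792 to 852) and Atp5s, a protein first described as an ATP synthase coupling factor, at 0.33 (252 to 265).

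**Figure D4:**
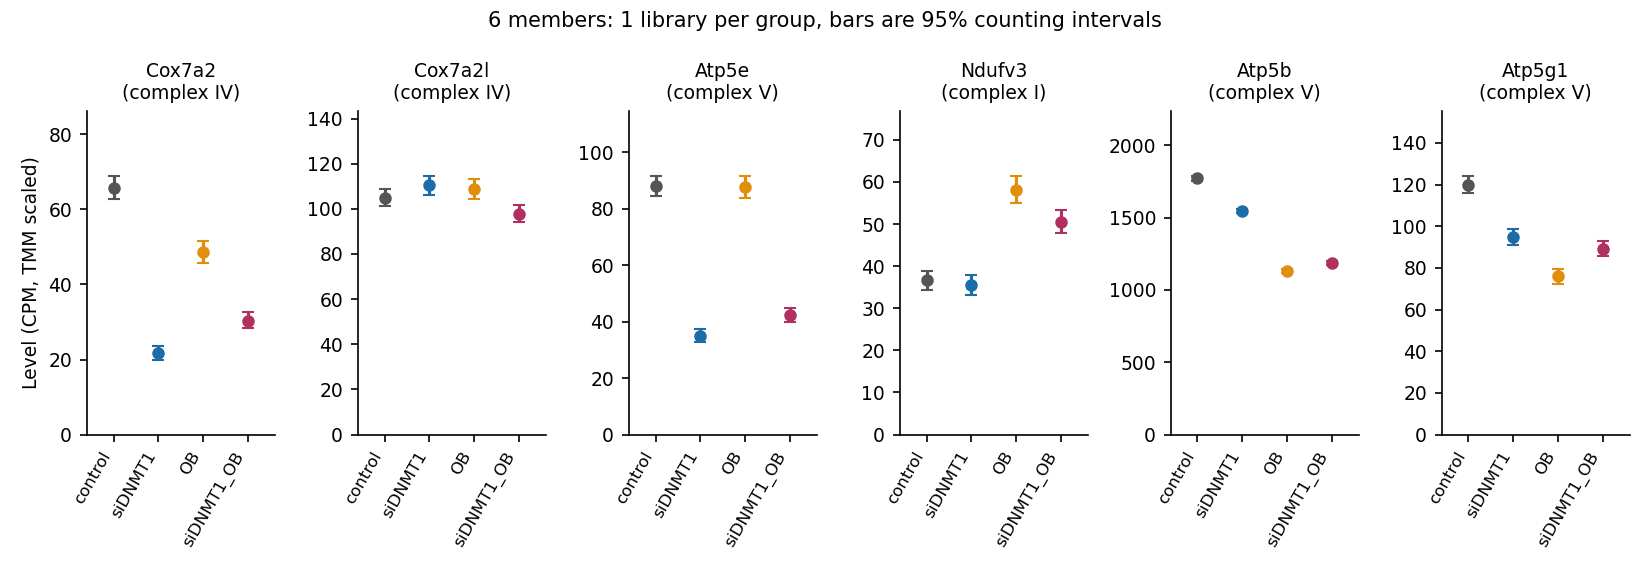
Level (CPM, linear axes from 0) of 6 members in the 4 libraries, the last being the library labelled siDNMT1_OB; bars are 95% counting intervals of 1 library. Cox7a2 and Atp5e are low in siDNMT1 and in the library labelled siDNMT1_OB, and Cox7a2l is near 100 CPM throughout; Ndufv3 is higher and Atp5b lower in both induced libraries, and Atp5g1 is lowest in OB.

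The other induction contrast, the library labelled siDNMT1_OB against siDNMT1, was centred closer to 0. The median of the members was -0.04 (interquartile range -0.16 to 0.08), with 37 below 0 and 27 above, against 0.00 for all tested genes. Counting intervals lay below 0 for 27 members (background 33.1%), above 0 for 12 (33.1%) and across 0 for 25. Ndufv3 was at least 0.5 higher, at 0.51 (interval 0.39 to 0.63), where 16.6% of all tested genes were. With TMM factors from all gene rows it fell short of 0.5, and at a mean CPM of at least 5 the count was 2 members. No member was at least 0.5 lower (background 11.4%) or past a log2 fold of 1 (9.54%). Cox7a2 was next at 0.49 (0.33 to 0.65), from its low level in siDNMT1, and Atp5e was at 0.27 (0.15 to 0.40). This comparison shares a library with each of the siRNA pairs, so its values are not independent of theirs. It shares none with OB against control.

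Within complex I the median of siDNMT1 against control was -0.15 for 11 Ndufa genes, -0.13 for 9 Ndufb genes, -0.12 for 5 Ndufs genes, -0.21 for 2 Ndufc genes and -0.15 for 3 Ndufv genes. In the induced pair the same medians were -0.11, -0.10, 0.06, -0.11 and 0.04, and for OB against control -0.04, -0.12, -0.13, -0.03 and -0.29. In the induced pair 10 of 11 Ndufa genes were below 0 and 4 of 5 Ndufs genes above. Of the core subunits that carry electrons, Ndufs7 had 1916, 1635, 1238 and 1496 counts and Ndufs8, which binds iron-sulfur clusters, had 1849, 1605, 1184 and 1527. Both were lowest in OB, with log2 fold changes of -0.37 and -0.38 against control. Among accessory subunits, Ndufa4, which is now counted to complex IV, had 3906, 3015, 3320 and 3635 counts, lowest in siDNMT1 (-0.29). Ndufb2, at only 146 to 198 counts, had the lowest value of the complex for siDNMT1 against control, -0.34, with a wide interval (-0.67 to -0.03). Ndufb7, on the outer face of the membrane arm, was lowest for the library labelled siDNMT1_OB against siDNMT1, at -0.24.

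Complex II, which also belongs to the citric acid cycle and is wholly nuclear, was lower in siDNMT1 than in control in all 4 genes, by log2 fold changes from -0.24 to -0.07. The flavoprotein Sdha had 5854, 4681, 4641 and 4854 counts, and per depth siDNMT1 was lower than control (-0.24) and the library labelled siDNMT1_OB lower than OB (-0.18). The iron-sulfur subunit Sdhb had 1740, 1562, 1224 and 1472, and the membrane anchors Sdhc and Sdhd had 2459, 2091, 2139 and 2460, and 2013, 1699, 1345 and 1565. For OB against control Sdhc was at 0.06 (interval -0.02 to 0.15) and Sdhd at -0.32 (-0.42 to -0.22), although their products form 1 anchor.

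Complex III had 8 members, all lower in siDNMT1 than in control, with a median of -0.26, and 7 of them were also below 0 in the induced pair, with a median of -0.15. The core proteins Uqcrc1 and Uqcrc2 were at -0.25 (4092 to 3255 counts) and -0.20 (2246 to 1853) in the untreated pair. The Rieske iron-sulfur protein Uqcrfs1 was the least changed there, at -0.07 (interval -0.16 to 0.01), but the lowest of the complex for OB against control, at -0.42 (2434 to 1512 counts). The hinge protein Uqcrh, which helps cytochrome c to bind, was the highest of the complex in that comparison, at 0.06 (2926 to 2546). Uqcrq, a small subunit near cytochrome b, was lowest in the induced pair, at -0.23.

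In complex IV the median of the 9 members that passed the filter was -0.27 in the untreated pair and -0.11 in the induced pair. Cox4i1, the widely expressed form of subunit IV, had 7348, 6174, 6059 and 6301 counts and lay at -0.17 and -0.19. Its exons overlap those of Emc8, so its counts can include reads of that gene. Cox5b, which binds zinc, had 2676, 2373, 1802 and 2222 counts and was the highest of the complex in the induced pair, at 0.06 (interval -0.03 to 0.15). Cox6a1, Cox6b1 and Cox8a were lower in siDNMT1 than in control, at -0.29, -0.42 and -0.29. Cox7c, at 4062, 3191, 2593 and 2843 counts, was the lowest of the complex for the library labelled siDNMT1_OB against siDNMT1, at -0.23.

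In complex V the median of 13 members was -0.20 in the untreated pair and -0.04 in the induced pair. The members that encode other subunits of the head and central stalk stayed within 0.5 in both siRNA pairs. Atp5c1, the gamma subunit that turns within the head, had 4990, 4600, 3609 and 4076 counts and log2 fold changes of -0.04 and -0.07. Atp5a1 was at -0.11 and -0.06, and Atp5b at -0.20 and 0.06. Atp5d, for the delta subunit of the central stalk, is no member by its transcript label and overlaps Cbarp, and it was at -0.31 and -0.20.

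A set of 16 members over the 5 complexes, mostly catalytic or core subunits, could be compared with the 48 others. They were Ndufs7, Ndufs8, Ndufv1, Ndufv2, Sdha to Sdhd, Uqcrc1, Uqcrc2, Uqcrfs1, Cox4i1, Cox5b, Atp5a1, Atp5b and Atp5c1. Cox4i1 and Cox5b, the genes of complex IV in this set, are not catalytic or core subunits. For OB against control the median of the 16 was -0.31, with 15 of 16 below 0. That of the others was -0.13, with 34 of 48 below 0. For the library labelled siDNMT1_OB against siDNMT1 the medians were -0.16 (15 of 16 below 0) and 0.02 (22 of 48). In the untreated siRNA pair the medians were -0.15 (16 of 16 below 0) and -0.19 (43 of 48), and in the induced siRNA pair -0.00 (8 of 16) and -0.10 (37 of 48). The difference between the groups of genes was not tested.

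Several subunits of complex IV have forms for special tissues, and these gave nearly no reads. Of 8 members that did not pass the filter, 7 were such genes. The muscle forms Cox7a1 and Cox8b had 4 to 9 and 0 to 2 counts, and the testis forms Cox6b2, Cox7b2 and Cox8c had 0 to 3, 0 to 1 and 0. The eighth was a second row of Atp5o at 0 counts in all libraries, while the first row (ENSMUSG00000022956), for the subunit that holds the head to the side stalk, had 1428 to 1925 counts. Cox4i2, the form of subunit IV tied to low oxygen and lung, had 1, 3, 16 and 14 counts, higher in both induced libraries. With so few reads the ratio per depth is given with no prior count, and for OB against control it was 19.2 with a very wide interval (2.98 to 805). The heart and muscle form Cox6a2 had 14, 41, 11 and 11 counts, a ratio of 3.10 for siDNMT1 against control (1.66 to 6.16). The widely expressed Cox6a1 had 3761 to 4857 counts in the same libraries and Cox4i1 6059 to 7348.

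The choice by transcript type left out 13 coding genes with these names whose row carries another transcript label, of which 12 passed the filter. They include the core subunits Ndufs1 and Ndufs3 and the subunits Cox5a, Cox6c, Atp5d and Atp5h. Their medians were -0.17 in the untreated pair, -0.04 in the induced pair, -0.06 for OB against control and 0.05 for the library labelled siDNMT1_OB against siDNMT1. Ndufa12, an accessory subunit of complex I, at 2038, 1756, 1186 and 1389, was lower in OB than in control (-0.52). None of the 12 was as low as Cox7a2 or Atp5e in either siRNA pair.

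Around the chain, cytochrome c varied more than most members. Cycs, the somatic cytochrome c, had 3834, 2317, 1596 and 2295 counts, or 141, 90.4, 70.6 and 85.8 CPM. Its log2 fold changes were -0.64 in the untreated siRNA pair and 0.28 in the induced pair, and OB was at a level 0.50 times that of control. Cyc1, the cytochrome c1 of complex III that the name rule does not take, had 2817, 2119, 1365 and 1780, and was at -0.78 for OB against control. For both genes control was the highest library and OB the lowest. Ndufab1, the acyl carrier protein in complex I, was at -0.51 in that comparison (1265 to 738 counts).

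The 13 subunits encoded in mitochondrial DNA had medians of -0.05, 0.00, 0.09 and 0.10 in the order untreated pair, induced pair, OB against control and the library labelled siDNMT1_OB against siDNMT1, and 3, 7, 10 and 10 of 13 were above 0. None passed 0.5 in any of them, where 6.08%, 6.28%, 18.3% and 11.4% of all tested genes were at least 0.5 lower and 8.46%, 8.43%, 22.1% and 16.6% higher. The highest in both siRNA pairs was mt-Nd3, a subunit of complex I, with 6519, 7551, 6090 and 8447 counts and log2 fold changes of 0.29 (interval 0.25 to 0.34) and 0.23 (0.18 to 0.28). Together they held 2.47% to 2.78% of the counts. Nuclear copies of mitochondrial DNA can share reads with these genes. The lowest single value was that of mt-Atp8 for OB against control, -0.31, at 211 and 142 counts, with an interval that crossed 0.

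Of 52 assembly factors, which build the complexes without staying in them, 50 passed the filter. Their medians were -0.09, 0.02, -0.04 and 0.07. At least 0.5 lower were 1, 2, 5 and 1 of them, against 6.08%, 6.28%, 18.3% and 11.4% of all tested genes, and at least 0.5 higher 0, 1, 3 and 1, against 8.46%, 8.43%, 22.1% and 16.6%. Fmc1, an assembly factor of complex V, was the only one past a log2 fold of 1, at -1.03 for the library labelled siDNMT1_OB against siDNMT1 (141 and 71 counts). Ndufaf4, an assembly factor of complex I, had 604, 374, 313 and 466 counts, at -0.61 for siDNMT1 against control. For the 16 enzyme genes of the citric acid cycle and pyruvate dehydrogenase the medians were -0.17, -0.01, -0.22 and -0.09. Citrate synthase, Cs, had 12058, 9658, 6915 and 8596 counts and was the one gene of this list at least 0.5 lower (-0.54 for OB against control, where 18.3% of all tested genes were). Ogdh, at 3729, 2949, 4176 and 5051, was the one gene of this list past 0.5 upward (0.71 for the library labelled siDNMT1_OB against siDNMT1, where 16.6% were).

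Of 12 regulators of mitochondrial genes, 10 passed the filter, and 5 of these were at least 0.5 lower in OB than in control (18.3% of all tested genes were), with a list median of -0.45. For the library labelled siDNMT1_OB against siDNMT1 3 of 10 were (11.4%), with a median of -0.35. Nrf1, which binds many promoters of the chain, had 1064, 1101, 546 and 717 counts (-0.70), and Tfam, the packaging factor of mitochondrial DNA, had 1407, 1311, 809 and 1085 (-0.54). The mitochondrial polymerases Polg and Polrmt were at -0.64 and -0.55 and Tfb1m at -0.71. Gabpa (-0.23), Yy1 (-0.27) and the nuclear receptor Esrra (0.10) were within 0.5. In the untreated siRNA pair the list median was -0.06 and none passed 0.5. The coactivator Ppargc1a had 0, 0, 0 and 3 counts and Ppargc1b 35, 33, 11 and 17.

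Promoters were found in the RefSeq table for 58 of the 71 symbols. In the 250 bases before the start the members had a median of 14 CpGs and 55.0% G and C, against 6 CpGs over 27025 promoters of all genes and 16 over the 9590 found for genes that passed the filter. Members were thus not richer in CpG than other expressed genes. The core of the NRF1 site, GCGCATGC on either strand, stood in 7 members (12.1%), against 2.32% of all promoters and 4.75% of those of genes that passed the filter. These were Atp5g2, Atp5k, Cox6a1, Ndufa11, Ndufa6, Ndufa8 and Sdhb. The GABP (ETS) core CCGGAAGT stood in 2 (3.45%, against 2.93% and 6.28%), the ERR element TCAAGGTCA in 1 (1.72%, against 0.37% and 0.21%) and the YY1 core AAGATGGC in 0 (against 1.59% and 2.13%). Over the 54 promoters of members that passed the filter the median was 14 CpGs too, and the shares were 13.0%, 3.70%, 1.85% and 0% in this order. None of the 4 promoters printed above held any of these letters, which says nothing of the factors themselves, and a match is a description and not a site.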

How the data were processed

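Poly(A) RNA of 4 samples, 1 per group, was sequenced from both ends with a TruSeq protocol. Per the study's methods and the submitters' processing notes, reads were trimmed with Trimmomatic, aligned with HISAT2 to mm10 and counted per gene with featureCounts. The authors deposited raw whole-number counts per gene with no normalization. The use of strand and of reads with several positions is not given in the sources used here. Members with an overlapping expressed gene (12 of 64) therefore carry uncertain counts. So do the 29 with a match of at least 100 bases at 95% identity to a transcript of another gene (BLAST 2.17.0, GENCODE M21). For some of the 29 that gene is the overlapping one, and 16 members had pseudogene copies.

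From the deposited counts, 13233 genes whose mean CPM reached 1 were kept. TMM factors and log2 fold changes (prior count 2) came from edgeR 4.0.16 in R 4.3.3. With 1 library per group there was no test. A gene was called past a log2 fold of 0.5 or 1. Intervals are exact (Clopper-Pearson) on the counts of a pair of libraries, and cover counting error only. Reads had no molecular identifiers, and the intervals treat every read as a separate molecule. Depth gave a median interval of about 0.09 to 0.10 on either side of a member's log2 fold change. The step that gives CPM and log2 fold changes was tested on simulated counts with no variation between dishes. The later steps were not tested in this way.

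The name rule uses no measured value, but the members and lists were chosen with earlier results of these data known. Genes named are members past a log2 fold of 1, the highest and lowest of each complex in each comparison, tissue-specific forms, core subunits and members at the floor, and of other lists those past 1 and the chief regulators. Genes named beyond this (Atp5j2, Ndufa1, Ndufa12 and values of other lists) were chosen after their values were seen. Alternatives were total count, upper quartile and DESeq2 1.42.0 scaling, prior count 0.5, a mean CPM of 5, no filter, and the 52 members that overlap no other expressed gene. Added after seeing the data were the coding genes with another transcript label and TMM factors from all gene rows. Coordinates are those of the table, on GRCm38, where 66 of 72 members had the GENCODE M21 position. Promoters are from RefSeq (GRCm38.p6).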

Additional observations from a re-analysis of the deposited data

Results flagged for a closer look

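For 3 members the ratios of siDNMT1 to control and of the library labelled siDNMT1_OB to OB pointed in opposite directions, with both counting intervals off 0, as they did for 12.6% of all tested genes. Atp5g1 was lower in siDNMT1 than in control (-0.34) and higher in the induced pair (0.23, the library labelled siDNMT1_OB against OB), a difference of 0.57. With its pseudogene Gm10039 added, the value of the induced pair was 0.09. Atp5b was at -0.20 and 0.06, a difference of 0.26, and Ndufs8 at -0.12 and 0.12, a difference of 0.25.

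Among the listed assembly factors, cytochrome c, subunits named outside the rule, regulators and citric acid cycle genes, the same was seen for Ndufaf4 (-0.61 and 0.33, a difference of 0.94), Cycs (-0.64 and 0.28, a difference of 0.92), Cyc1 (-0.33 and 0.14, a difference of 0.47), Suclg1 (-0.28 and 0.13, a difference of 0.41), Idh3a (-0.17 and 0.15, a difference of 0.32) and Cs (-0.24 and 0.07, a difference of 0.31). These and the 3 members, 9 genes, kept their signs under total count, upper quartile and DESeq2 scaling. Of the 12 coding subunit genes with another transcript label that passed the filter, 1 met it, Ndufa5 (-0.34 and 0.15), and among the cell type markers Spp1 (-1.41 and 0.54), Thy1 (-0.24 and 0.31), Fabp4 (-0.53 and 0.20) and Pdgfrb (0.21 and -0.18) did. These differences were not tested, since each group was 1 library, and Dnmt1 itself was no lower in the induced pair (0.13).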

How the results depend on the processing

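The 17 medians and counts over the members were recomputed under 9 alternatives, and 141 of 153 values moved by less than the spread that counts as a change (1.5 times for a count, the typical counting interval for a median). The member medians ranged from -0.18 to -0.14 for siDNMT1 against control, -0.10 to -0.05 for the library labelled siDNMT1_OB against OB, -0.21 to -0.11 for OB against control and -0.07 to -0.02 for the library labelled siDNMT1_OB against siDNMT1. The median difference between the log2 fold changes of the siRNA pairs, induced minus untreated, ranged from 0.07 to 0.12. Over the 52 members that overlap no other expressed gene the 4 member medians were -0.17, -0.07, -0.17 and -0.05 in the order above. No scaling moved the median of all tested genes by more than 0.05.

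With no filter on low counts, which adds 8 members near the floor, siDNMT1 against control had 3 members at least 0.5 higher and 4 past a log2 fold of 1. The library labelled siDNMT1_OB against OB had 1 and 2. OB against control had 3 at least 0.5 higher, 4 at least 0.5 lower and 2 past 1, and the library labelled siDNMT1_OB against siDNMT1 had 3, 3 and 3. For this last comparison the count at least 0.5 higher was 2 with a mean CPM of at least 5 and 0 with TMM factors from all gene rows, where Ndufv3 fell short of 0.5.

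For 37 named members only the 3 other scalings (total count, upper quartile and DESeq2) were run, and of their 444 log2 fold changes 439 stayed within their counting interval, and 0 of those past 0.5 changed sign. No paired analysis was possible because each group was 1 library with no replicate number. At this depth a difference of under about 0.1 on the log2 scale lay within counting error for a typical member. Variation between dishes comes on top and could not be measured, so 0.1 is no limit of detection.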
